A study of Mus musculus with 32 samples.

Results

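Seven-transmembrane receptors that steer leukocytes into, within and out of tissues were followed from the monocyte graft to the macrophages that developed from it in the gut. The 7 genes are Ccr1, Ccr2, Ccr7, Ccr9, Cx3cr1, Cxcr4 and S1pr1, taken by their symbols from the 24411 genes of the first count table and the 24421 genes of the second, and all 7 were listed in both. Chemokine receptors couple to inhibitory G proteins and turn a gradient of a small secreted ligand into directed movement. CCR2 lets classical monocytes leave the bone marrow (BM) and enter inflamed tissue, CCR1 binds a broad set of inflammatory chemokines, CX3CR1 binds the membrane-tethered ligand CX3CL1 and marks monocytes and gut macrophages, and CXCR4 holds leukocytes in the BM through CXCL12. CCR7 directs dendritic and T cells to lymph nodes, CCR9 directs T cells and plasma cells to the small intestine through CCL25, and S1PR1 reads the lipid sphingosine-1-phosphate (S1P), guides lymphocyte egress and is abundant on endothelium.

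The study transferred monocytes into mice whose gut macrophages had been depleted, in order to follow macrophage development in colon and ileum over time. Donors were C57BL/6 mice with GFP knocked into 1 allele of Cx3cr1 (Cx3cr1 GFP/+) and the CD45.1 allotype, so the graft and its progeny alike carry only 1 intact copy of Cx3cr1. GFP from that locus was used to sort the graft and, with CD45.1, its progeny. Recipients were [CD11c-DTR > WT] BM chimeras, in which the Itgax promoter drives the diphtheria toxin (DTx) receptor in haematopoietic cells, or [CX3CR1-DTR > WT] BM chimeras, irradiated at 7 to 10 weeks of age and given DTx before transfer and on alternate days after it. Host cells that survive irradiation lack the transgene and are not depleted by DTx. The libraries were the monocyte graft (3, no DTx, CD117- CD11b+ CD115+ Ly6C+ GFPint), colonic macrophages of days 4 (3), 8 (3) and 12 (4), ileal macrophages of days 4, 8 and 12 (4 each), and macrophages taken from the colon of CX3CR1-DTR recipients on day 14 (6). For engrafted cells GEO's labels give the markers CD11b+ CD64+ Ly6C- MHCII+, whereas the study describes a sort on CD45.1 and GFP and reports MHCII as late to appear. GEO's labels give blood as the organ and the CD11c-DTR genotype for the graft, where the study describes BM monocytes of Cx3cr1 GFP/+ mice, and the day of the CX3CR1-DTR libraries comes from the study's list of data sets alone. That list gives 4 repeats and does not say which of the 6 libraries they are, so the day is uncertain for some of them.

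Between 591817 and 5228664 reads fell on genes in the libraries of the first table, and between 1223772 and 4218027 in the CX3CR1-DTR libraries. Levels are given as normalized reads, which are counts per 10000000 mapped reads, and 3 counts equal 3.51 to 27.7 normalized reads by library. Reads came from the 3′ end of transcripts, and levels are compared between groups and not between genes. For colon day 8 the study lists 3 repeats, without naming them, and 4 libraries carry that label. Replicate 1 stood apart from the other colonic libraries (summed macrophage markers of 95680 normalized reads against 4322 to 25450), and was left out except where named, a choice made with earlier results of these data known. Nothing in the labels says whether libraries of a group came from separate mice, so p-values measure the spread between these libraries.

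Of the 7 genes, 4 lie on chromosome 9. In mm9 the counted exons belong to Ccr1 at chr9:123876959-123883525 (minus strand), Ccr2 at chr9:124016922-124023879 (plus), Ccr9 at chr9:123676329-123692575 (plus) and Cx3cr1 at chr9:119957801-119977414 (minus). Ccr7 lies at chr11:99005513-99016391, Cxcr4 at chr1:130484776-130488876 and S1pr1 at chr3:115413351-115417973, all on the minus strand. Ccr9, Ccr1 and Ccr2 sit in 1 stretch of 348 kb of the chemokine receptor cluster, and their levels took 3 different courses in the data. Their promoters are shown for that reason, from RefSeq on GRCm38.p6, each from 250 bases before to 50 bases after the start of the gene and read 5′ to 3′ on the gene's strand. Capitals mark matches on either strand to GAGGAA, the core bound by the myeloid factor PU.1, or to AGATAA, which GATA factors bind.
Ccr9, chr9:123766961-123767260 (plus strand): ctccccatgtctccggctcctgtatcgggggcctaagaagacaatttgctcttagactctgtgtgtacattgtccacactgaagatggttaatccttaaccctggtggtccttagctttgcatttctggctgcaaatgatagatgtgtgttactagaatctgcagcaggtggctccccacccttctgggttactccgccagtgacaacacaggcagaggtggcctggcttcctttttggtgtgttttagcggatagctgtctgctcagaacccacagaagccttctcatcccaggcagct
Ccr1, chr9:123968643-123968942 (minus strand): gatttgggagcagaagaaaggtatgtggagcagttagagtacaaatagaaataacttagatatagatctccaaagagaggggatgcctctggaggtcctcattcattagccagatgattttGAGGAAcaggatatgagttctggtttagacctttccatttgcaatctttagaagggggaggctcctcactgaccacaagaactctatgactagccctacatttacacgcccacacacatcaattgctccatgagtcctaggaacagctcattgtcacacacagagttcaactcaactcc
Ccr2, chr9:124101933-124102232 (plus strand): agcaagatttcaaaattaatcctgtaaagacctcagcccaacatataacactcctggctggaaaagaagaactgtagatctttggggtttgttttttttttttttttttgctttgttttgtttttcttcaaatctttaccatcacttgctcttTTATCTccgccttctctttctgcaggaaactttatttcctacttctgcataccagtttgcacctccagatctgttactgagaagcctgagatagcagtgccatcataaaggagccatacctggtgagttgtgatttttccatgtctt
The Ccr1 window held 1 match to GAGGAA, the Ccr2 window 1 match to AGATAA, read on the other strand, and the Ccr9 window no match to either. None of the 3 windows matched TTGCNNAA, a pattern bound by C/EBP factors, on either strand. Of 32851 promoters, 28.3% held GAGGAA, 11.2% AGATAA and 10.8% TTGCNNAA, and a match here is only a match of letters.

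Ccr2 was the receptor that fell furthest. It stood at 6535, 6518 and 4611 normalized reads in the 3 graft libraries and at 59.2, 195.7 and 83.4 in the colon on day 4. Every engrafted library of either segment lay below every graft library. The fall was 40.8-fold by day 4 (log2 fold change -5.35 ± 0.81 (SE), edgeR quasi-likelihood test, adjusted p = 5.01e-06), and the colonic level was 90.4-fold below the graft on day 8 (adjusted p = 8.07e-07) and 201-fold on day 12 (adjusted p = 2.61e-08). On day 8 the colonic libraries held 43.9, 60.02 and 56.2 normalized reads and on day 12 they held 15.6, 49.8, 23.2 and 8.25, which rests on 5 to 19 counts per library.

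In the ileum Ccr2 fell less far. Its values were 452, 96.1, 119.8 and 521 on day 4, 276.5, 165.2, 113.8 and 23.8 on day 8, and 546, 297, 75.4 and 121 on day 12. These were 14.9-fold (log2 -3.90 ± 0.67, adjusted p = 3.30e-05), 28.6-fold (adjusted p = 3.77e-06) and 16.1-fold (adjusted p = 2.13e-05) below the graft. All of these calls held under every alternative that was run. Classical monocyte markers fell beside it, from summed levels of 64350 to 79920 in the graft to 3290 to 7771 in colonic and 1626 to 8365 in ileal libraries, with 6 of 6 markers detected in each group. The 3 genes whose pattern over the 25 libraries was most like that of Ccr2 were BC035044 (Pearson r = 0.98), Ifi205 (0.966) and Pygl (0.965), each high in the graft.

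Cxcr4 also fell in the colon. The graft libraries held 842, 599 and 610.3 normalized reads, and the colonic libraries 28.7, 56.3 and 81.3 on day 4, 108, 36.5 and 81.9 on day 8 and 132, 168, 58.5 and 137 on day 12. None of these colonic libraries reached the graft, whereas colon day 8 replicate 1, left out, held 1168. The level was 9.74-fold lower on day 4 (log2 -3.28 ± 0.79, adjusted p = 0.000975), 7.55-fold lower on day 8 (adjusted p = 0.00222, but log2 -0.48 and adjusted p = 0.673 with replicate 1 included) and 4.41-fold lower on day 12 (log2 -2.14 ± 0.66, adjusted p = 0.00722).

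In the ileum 1 library decided the result for Cxcr4. On day 4 the values were 168, 96.1, 1511 and 135.5, and replicate 3, with the fewest reads of all libraries, lay above the graft while the other 3 lay below it. With all 4 libraries the difference from the graft was -0.06 ± 0.66 (log2, adjusted p = 0.948). Without replicate 3 it was -1.97 (adjusted p = 0.000464), and with the experiment 2 libraries alone -1.75 (adjusted p = 0.00470). On day 8 the values of 146, 179, 107 and 133 lay 3.29-fold below the graft (log2 -1.72 ± 0.67, adjusted p = 0.0329), a call lost with the experiment as a block (adjusted p = 0.0521) and without any 1 of 5 libraries (graft replicates 1 and 3, ileum day 8 replicates 1 to 3, adjusted p = 0.0519 to 0.0871). On day 12 the values of 267, 139, 148 and 270.6 gave -1.20 ± 0.65 (adjusted p = 0.120), and it passed with ileum day 4 taken from experiment 2 alone (adjusted p = 0.00665), with these groups alone (adjusted p = 0.0111) and with library totals alone (adjusted p = 0.0190).

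Cx3cr1 was present throughout. Its values in the graft were 1156, 996 and 877 normalized reads. In the colon they were 179, 326 and 169 on day 4, 439, 211 and 149.8 on day 8 and 154, 610.3, 175 and 460.1 on day 12, all below the graft. The colonic level was 3.50-fold lower than the graft on day 4 (log2 -1.81 ± 0.58, adjusted p = 0.0103) and 3.24-fold lower on day 8 (log2 -1.70 ± 0.58, adjusted p = 0.0153, but 0.0578 and 0.0762 without colon day 8 replicates 3 and 4). On day 12 the difference was -1.16 ± 0.52 (adjusted p = 0.0571), and it passed with the experiment as a block (-1.32, adjusted p = 0.0302) and by DESeq2 (-1.17, adjusted p = 0.0445). Ileal values ranged from 391 to 1346 on day 4, from 258 to 1499 on day 8 and from 849 to 1607 on day 12, overlapped the graft on each day and passed the test on none (adjusted p = 0.517, 0.745 and 0.174). Since GFP of this locus was used to sort graft and engrafted cells alike, no level of Cx3cr1 is independent of how the cells were chosen. Its most similar patterns were those of Dnase2a (r = 0.935), Fnbp1 (0.917) and Stard8 (0.915).

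Ccr1 split by segment. The graft held 926, 544.5 and 274 normalized reads. Colonic libraries held 96.8, 290.5 and 140.3 on day 4, 304, 154 and 176 on day 8 and 149.9, 834.5, 248.5 and 183 on day 12, and overlapped the graft on each day. No colonic comparison with the graft passed (adjusted p = 0.101, 0.140 and 0.635), although with the experiment as a block day 4 did (log2 -1.49, adjusted p = 0.0446), as it did with library totals alone (adjusted p = 0.0357), these groups alone (adjusted p = 0.00992) or without colon day 4 replicate 2 (adjusted p = 0.0412). Day 8 passed with these groups alone (adjusted p = 0.0121). Ileal libraries held 842, 369, 756 and 906 on day 4, 1469, 789, 964 and 177 on day 8 and 3095, 767, 845 and 897.5 on day 12. Only day 12 was called higher than the graft (3.47-fold, log2 1.80 ± 0.66, adjusted p = 0.0249), and that call rested on replicate 1, without which it was 1.00 (adjusted p = 0.171). It was also lost without graft replicate 2 (adjusted p = 0.0726) or 3 (adjusted p = 0.113) and with library totals alone (adjusted p = 0.0918). The patterns most like that of Ccr1 were those of Ms4a6d (r = 0.951), Plek (0.944) and Kctd12 (0.940).

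**Figure D1:**
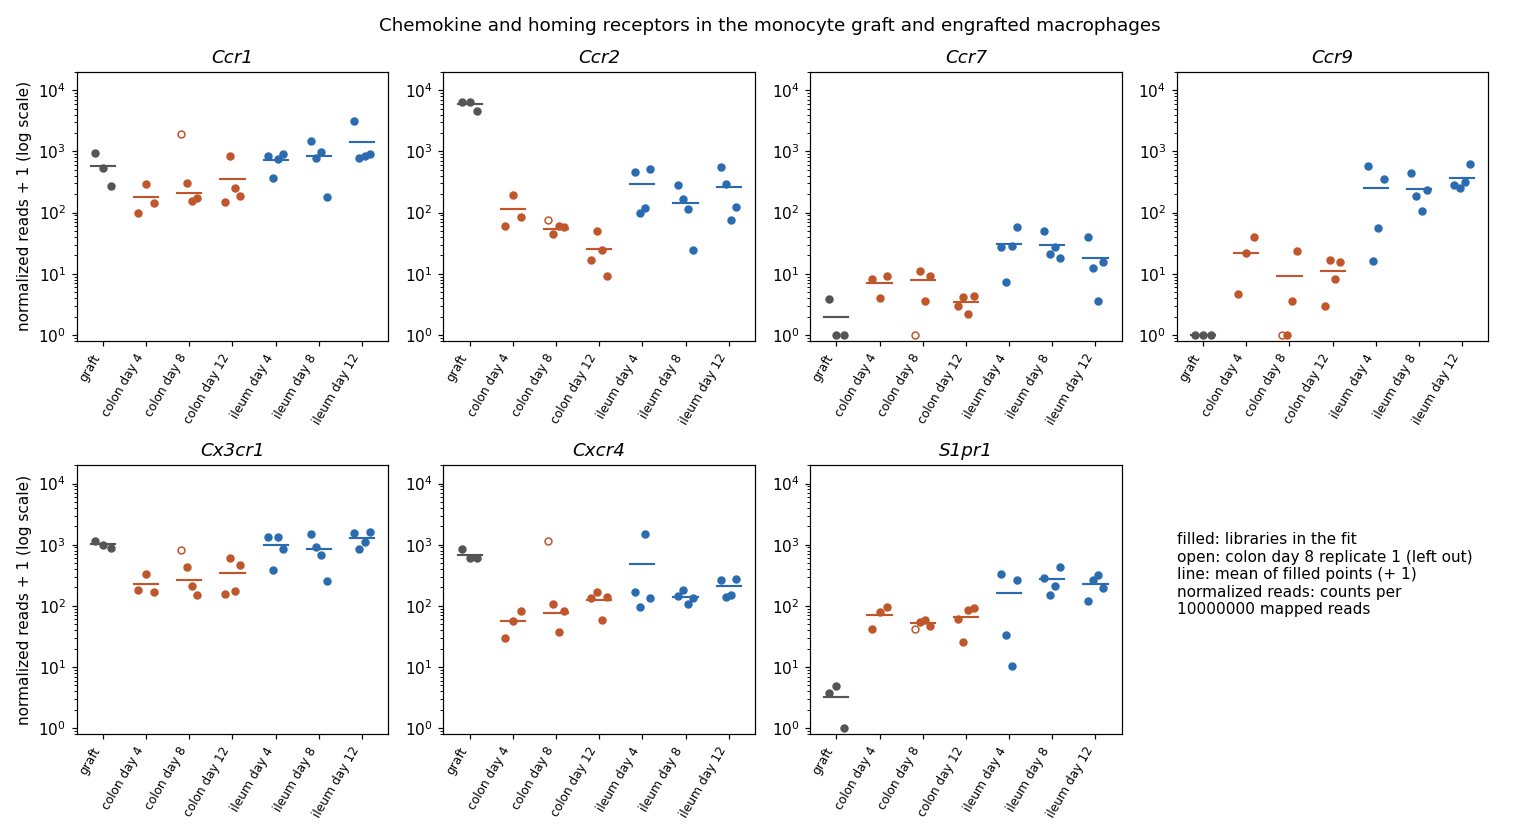
Normalized reads (counts per 10000000 mapped reads, plus 1, log scale) of the 7 receptors by group. Each point is 1 library, the line is the group mean, and the open point is colon day 8 replicate 1, which was left out. Ccr2 lies between 4611 and 6535 in the graft and at 546 or below in every engrafted library, whereas Ccr9 and S1pr1 lie at or near 0 in the graft.

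Ccr9 was not detected in the graft and was present in every ileal library. All 3 graft libraries held 0 counts, where 3 counts would equal a mean of 7.17 normalized reads. Ileal libraries held 588, 14.9, 55.3 and 357 on day 4, 450.0, 185, 107 and 234.5 on day 8, and 278.5, 248, 312 and 631 on day 12. Against that limit of 3 counts per graft library the ileal means were at least 35.4-fold, 34.1-fold and 51.3-fold higher (adjusted p = 6.28e-05, 5.68e-05 and 2.45e-05).

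In the colon Ccr9 stayed near the limit of detection. Its values were 3.59, 20.8 and 38.6 normalized reads on day 4, 0, 2.61 and 22.2 on day 8, and 1.95, 15.6, 7.31 and 14.8 on day 12. The day 4 mean was at least 2.93-fold above the graft (adjusted p = 0.0244), which no longer passed without colon day 4 replicate 3 (adjusted p = 0.106) or without graft replicate 2 or 3 (adjusted p = 0.0644 and 0.0546). Days 8 and 12 were not called by edgeR (adjusted p = 0.0726 and 0.0746) but were by DESeq2 (adjusted p = 0.00941 and 0.00441), and day 12 was with the experiment as a block (adjusted p = 0.0417).

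S1pr1 was nearly absent from the graft, with 1, 2 and 0 counts (2.81, 3.88 and 0 normalized reads). Colonic libraries held 41.2, 77.1 and 93.5 normalized reads on day 4, 54.0, 57.4 and 45.7 on day 8 and 60.3, 24.9, 85.3 and 90.7 on day 12. Ileal libraries held 330.2, 32.02, 9.22 and 264 on day 4, 279, 148, 214 and 435 on day 8 and 120.0, 267, 317 and 198 on day 12. Each engrafted library exceeded each graft library in normalized reads. Ileum day 4 replicate 3 did so on 1 count, below the 27.7 normalized reads that 3 counts equal in it. In pooled counts the colon exceeded the graft by a ratio of 29.3 on day 4 (95% exact interval 9.74 to 145, adjusted p = 0.000358), 21.5 on day 8 (7.09 to 107, adjusted p = 0.00130) and 31.06 on day 12 (10.4 to 152, adjusted p = 0.000246). In the ileum the ratios were 64.3 (21.6 to 315, adjusted p = 1.94e-05), 115 (39.2 to 562.4, adjusted p = 2.91e-06) and 92.1 (31.3 to 448, adjusted p = 6.05e-06), with intervals of counting error only. The adjusted p-values are those of the edgeR fit and not of these pooled ratios. Ccr9 and S1pr1 passed the filter on low reads through engrafted libraries alone, so that a rise from the graft was built into their being tested.

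Ccr7 was near the floor of detection. The graft held 1 count in 1 of 3 libraries, colonic libraries 1 to 7 counts (1.22 to 10.1 normalized reads) and ileal libraries 1 to 18 counts (2.60 to 57.1). It missed the filter, which asked for 50 or more normalized reads in 3 or more libraries, and was not tested with the others. A fit without that filter gave higher levels than the graft on each ileal day (adjusted p = 0.000463, 0.000232 and 0.00131), on colon day 8 (adjusted p = 0.0451) and not on colon days 4 and 12 (adjusted p = 0.0559 and 0.345). Its most similar patterns, over so few counts, were those of Ccl24 (r = 0.796), Adap2 (0.791) and Tnni3 (0.791).

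Of the receptors that passed the filter, 5 of 6 passed between graft and colon on day 4 (60.4% of all 11842 tested genes did), 4 of 6 on day 8 (59.1%) and 3 of 6 on day 12 (62.6%). Between graft and ileum 3 of 6 passed on day 4 (56.7% of all genes), 4 of 6 on day 8 (53.9%) and 4 of 6 on day 12 (55.9%). Against such backgrounds these counts say nothing particular about the receptors. Ordered by mean, Ccr2 was highest in the graft and did not overlap the next group, ileum day 4, while all later neighbours in its order overlapped. Ccr9 ranked ileum days 12, 4 and 8 above all colonic groups by mean, with no overlap between ileum day 8 and colon day 4. Ileum day 4, with replicate 2 at 14.9 normalized reads, did overlap colon day 4 (3.59 to 38.6). S1pr1 ranked the graft last with no overlap with colon day 8, the next group. Neighbouring groups in the order of Ccr1, Ccr7, Cx3cr1 and Cxcr4 overlapped throughout.

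From one sampled day to the next no receptor passed the test. None of 6 passed from day 4 to day 8 in the colon (0% of all genes) or from day 8 to day 12 (0%), by edgeR or DESeq2, and none had an unadjusted p under 0.05. In the ileum none of 6 passed from day 4 to day 8, where 5.13% of all genes did, and none from day 8 to day 12 (0% of all genes), with 1 receptor (Cxcr4, adjusted p = 0.139) under 0.05 before adjustment in the first of these steps. The colonic Ccr2 mean went from 113 ± 72.8 (SD, n = 3) to 53.4 ± 8.42 (n = 3) to 24.2 ± 18.1 (n = 4), log2 changes of -1.15 ± 0.76 and -1.15 ± 0.77, each with an adjusted p of 1. The other colonic changes from day 4 to 8 and from day 8 to 12 were 0.14 and 0.84 (log2) for Ccr1, -0.92 and -0.14 for Ccr9, 0.11 and 0.54 for Cx3cr1, 0.37 and 0.78 for Cxcr4, and -0.52 and 0.50 for S1pr1. In the ileum they were 0.30 and 0.74 for Ccr1, -0.94 and 0.83 for Ccr2, 0.08 and 0.53 for Ccr9, -0.20 and 0.63 for Cx3cr1, -1.66 and 0.52 for Cxcr4, and 0.96 and -0.45 for S1pr1. Ccr7 was not tested in these steps.

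The sorted cells were not pure in their RNA, and other cell types moved with the segments. Macrophage markers (9 listed, 9 detected in every engrafted group) summed to 4322 to 25450 normalized reads in colonic and 11100 to 128200 in ileal libraries. In the graft they summed to 61460 to 84950, with Mertk at 0. Markers of intestinal epithelium (8 of 8 detected) summed to 70430 to 108900 in the colon and 12770 to 87420 in the ileum against 21.8 to 30.9 in the graft, where Krt20 and Vil1 were at 0. In a bulk library, fewer cells of a type and less RNA per cell cannot be told apart.

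Markers of other leukocytes and of endothelium also differed between the segments. B and plasma cell markers (6 of 6 detected in each ileal group) summed to 3336 to 141900 in the ileum and to 664 to 8485 in the colon, with Ms4a1 at 0 on colon day 12. T cell markers (8 of 8) summed to 46.1 to 1020 in the ileum and 34.3 to 80.0 in the colon, with Cd3e at 0 on colon day 12. Endothelial markers (6 of 6) summed to 145 to 5006 in the ileum and 168 to 859 in the colon, and 5 of 6 (Cdh5, Kdr, Tek, Emcn and Ramp2) were at 0 in the graft. Some shorter lists went the same way and others did not. Natural killer and innate lymphoid markers (4, with Ncr1 at 0 in every group) summed to 9.22 to 633.9 in the ileum and 2.44 to 47.4 in the colon, eosinophil markers (4, with Epx at 0 on ileum days 4 and 12 and colon days 4 and 8) to 19.2 to 799 and 6.75 to 28.02, and markers of small intestinal enterocytes (5 of 5) to 2767 to 13070 and 1118 to 6592. Of 7 neutrophil markers, 5 were lower and 1 higher in the colon on day 12. Mast cell markers (4, with Cpa3 and Fcer1a at 0) summed to 112 to 152 in the colon and 26.6 to 81.5 in the ileum on that day. Plasmacytoid dendritic cells also carry CCR9, and of their 5 markers 3 were tested, with Siglech and Tcf4 lower in the colon on day 12 (log2 -3.02 and -1.32, adjusted p = 0.0132 and 0.00707) and Klk1 higher (3.54, adjusted p = 0.000292). The sum of these 5 markers was higher in the colon on that day (6745 to 13060 against 1361 to 2062). It went with Klk1 and against Siglech and Tcf4, so it does not speak for the list as a whole.

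**Figure D2:**
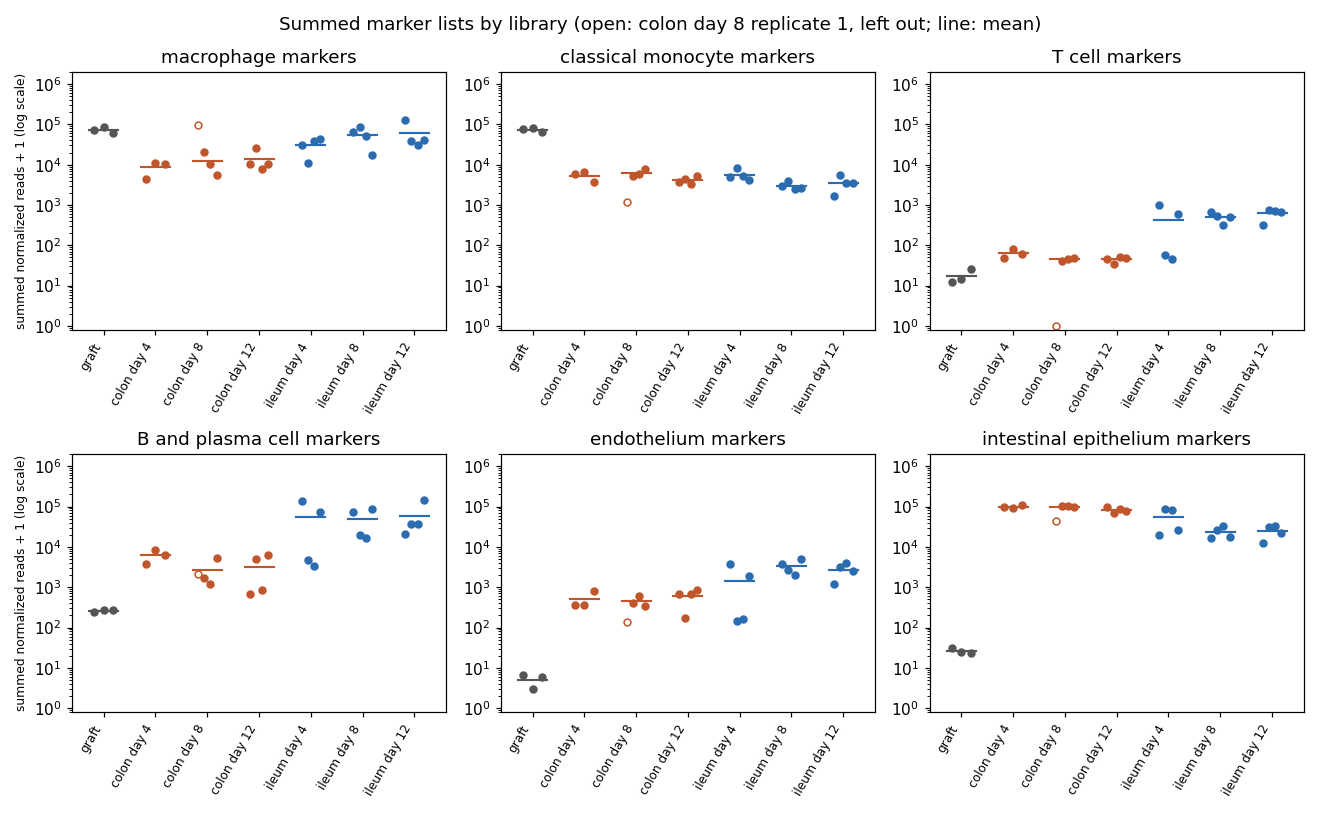
Summed normalized reads (plus 1, log scale) of 6 marker lists by group, 1 point per library with the group mean as a line and colon day 8 replicate 1 open. B and plasma cell, T cell and endothelial markers are low in 2 of the 4 ileum day 4 libraries, replicates 2 and 3, and epithelial markers are high in the same 2.

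The colon was set against the ileum on each day to ask where the segments part. On day 12, 5 of 6 tested receptors were lower in the colon (32.5% of all genes passed in either direction). Ccr9 differed most, at 9.92 ± 6.49 normalized reads in the colon and 367.5 ± 178 (SD, n = 4 each) in the ileum, a 41.6-fold difference (log2 -5.38 ± 0.96, adjusted p = 0.000577) with 4 of 4 colonic libraries below every ileal one. No colonic library reached 50 normalized reads of Ccr9, so it was tested through ileal libraries alone and a difference in this direction was built into its being tested. Ccr2 was 12.5-fold lower (log2 -3.64 ± 0.71, adjusted p = 0.000797), again without overlap. Ccr1 was 4.46-fold lower (adjusted p = 0.00944, 0.0779 without ileum day 12 replicate 1), and Cx3cr1 was 4.06-fold lower (adjusted p = 0.00414). S1pr1 was 3.49-fold lower (adjusted p = 0.0235), a call lost without colon day 12 replicate 1 or 2 or ileum day 12 replicate 3 (adjusted p = 0.0576 to 0.0651), and Cxcr4 was not called (log2 -0.94 ± 0.63, adjusted p = 0.270). Ccr7, outside the filter, was lower in the colon on days 8 and 12 in the fit without a filter (log2 -2.19 and -2.88, adjusted p = 0.0452 and 0.0103) and did not pass on day 4 (-2.11, adjusted p = 0.182), with 1 to 18 counts per library.

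On day 8, 4 of 6 were lower in the colon (35% of all genes). These were Ccr9 (26.11-fold, adjusted p = 0.00229), S1pr1 (6.74-fold, adjusted p = 0.00462), Ccr1 (4.78-fold, adjusted p = 0.0143) and Cx3cr1 (3.79-fold, adjusted p = 0.0112). The last 2 no longer passed without colon day 8 replicate 3 or 4, nor with replicate 1 added. Ccr2 (log2 -1.66 ± 0.72, adjusted p = 0.0762) and Cxcr4 (-1.20 ± 0.73, adjusted p = 0.209) were not called, but both were with these groups alone (adjusted p = 0.0376 and 0.0365) and with ileum day 4 from experiment 2 alone (adjusted p = 0.0463 and 0.0237).

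On day 4, 3 of 6 were lower in the colon (3.18% of all genes), namely Ccr9 (log2 -3.71 ± 1.00, adjusted p = 0.0463), Cx3cr1 (-2.23 ± 0.57, adjusted p = 0.0431) and Cxcr4 (-3.22 ± 0.78, adjusted p = 0.0389). The count ran from 0 to 4 as libraries were left out, and was 0 without any 1 of the colon day 4 libraries or of ileum day 4 replicates 1 and 4. Without ileum day 4 replicate 3 the difference in Cxcr4 was -1.31 (adjusted p = 0.0864). With the experiment as a block Ccr1 passed as well (log2 -2.37, adjusted p = 0.0282). The 2 experiments that make up ileum day 4 differed. The experiment 2 libraries held 588 and 357 normalized reads of Ccr9 and 330.2 and 264 of S1pr1, and the experiment 1 libraries 14.9 and 55.3 of Ccr9 and 32.02 and 9.22 of S1pr1. B and plasma cell markers summed to 135900 and 74940 in the former and 4767 and 3336 in the latter, and endothelial markers to 3662 and 1876 against 145 and 166. With experiment 2 alone in the ileum, all 6 receptors were lower in the colon (adjusted p = 0.000401 to 0.0288).

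**Figure D3:**
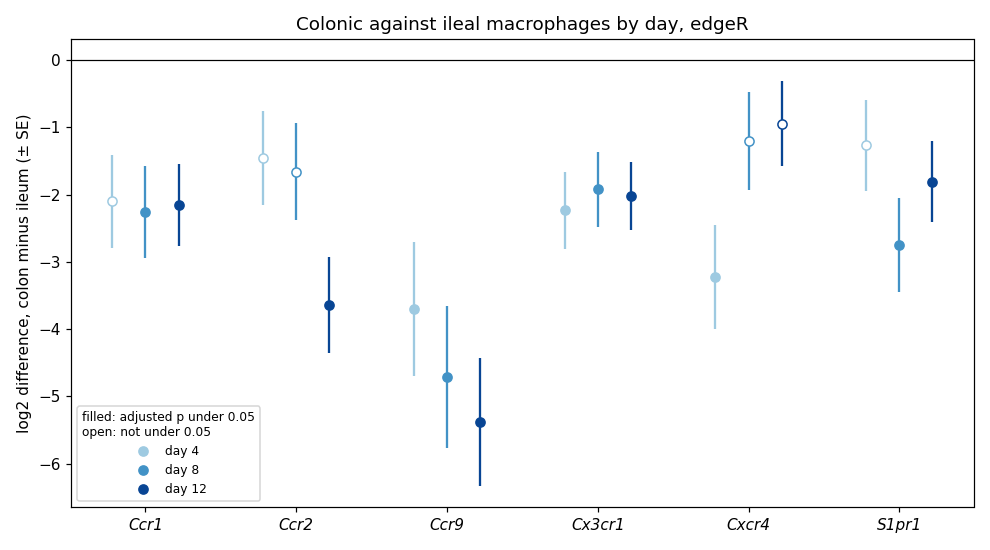
Log2 difference between colonic and ileal macrophages (negative values mean lower in the colon) with its standard error for the 6 tested receptors on days 4, 8 and 12, from edgeR. Filled points passed at an adjusted p under 0.05. All 18 differences lie below 0, and those of Ccr9 range from -5.38 to -3.71.

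These differences moved with the cell type markers, and how much of each they carry was not tested. When libraries were scaled to their summed macrophage markers instead, a choice made after seeing the data that shifts the median of all genes upward by 1.80, 2.48 and 2.10 (log2) on days 4, 8 and 12, Ccr9 on day 12 alone was called (log2 -3.40, adjusted p = 0.00349). That scaling moves all genes alike, so the calls it ends say nothing about single receptors. Ccr9 was most like Mzb1, a plasma cell gene (r = 0.961 over 25 libraries), Ly6d (0.954) and Tgtp2 (0.948), and these 3 also had higher means in the ileum, Mzb1 at 1208 against 51.1 normalized reads on day 12. S1pr1 was most like the endothelial genes Ptprb (r = 0.98), Adgrf5 (0.98) and Vwf (0.978), of which Ptprb and Adgrf5 were at 0 in the graft. Cxcr4 was most like Cebpb (0.876), Fabp5 (0.873) and Elmsan1 (0.858). These correlations describe patterns over libraries that may share batches and that differ in depth.

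Whether the segments drew apart between days 4 and 12 was asked with an interaction. None of 6 receptors passed (0% of all genes), none by DESeq2, and 2 had an unadjusted p under 0.05. These were Cxcr4 (log2 2.28 ± 0.97, adjusted p = 0.758) and Ccr2 (-2.19 ± 0.96, adjusted p = 0.759), and the Cxcr4 value includes ileum day 4 replicate 3. The others were -0.06 for Ccr1, -1.67 for Ccr9, 0.21 for Cx3cr1 and -0.54 for S1pr1, and Ccr7 was not tested.

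Other genes of the same systems were taken as lists. Of 17 other chemokine receptors only 6 could be tested, and on day 4 the colon had 2 higher than the graft and the ileum 5, with none lower. Of all genes 35.9% rose and 24.5% fell in the colon, and 36.2% and 20.5% in the ileum. The receptors named here were at or near 0 in the graft and passed the filter through engrafted libraries alone, so that a rise was built into their being tested. In the ileum Ccr10, a receptor of mucosal plasma cells, rose from 0.646 ± 1.119 to 231 ± 264 normalized reads (adjusted p = 2.69e-05), Cxcr6 from 0 to 61.0 ± 60.3 (adjusted p = 0.000448) and the scavenging receptor Ackr3 from 0 to 67.7 ± 51.9 (adjusted p = 7.49e-05). Ackr3 also rose in the colon, to 37.4 ± 18.2 (adjusted p = 0.000503). Of the 6, 4 were lower in the colon than in the ileum on day 12 (17.2% of all genes were), among them Cxcr6 (adjusted p = 0.00252) and Ccr10 (adjusted p = 0.00120). Where ileal libraries alone carried a gene past the filter, this direction too was built into its being tested.

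Of 12 tested ligands 7 were higher and 2 lower in the colon than in the graft on day 4, and 8 and 2 in the ileum. Of all genes 35.9% rose and 24.5% fell in the colon, and 36.2% rose and 20.5% fell in the ileum. Ccl9 fell from 4246 ± 1301 to 167 ± 22.8 in the colon (log2 -4.32 ± 0.56, adjusted p = 6.93e-07) and to 264 ± 232 in the ileum (log2 -3.61 ± 0.50, adjusted p = 1.80e-06), and Ccl6 fell in both as well. Cx3cl1, the ligand of CX3CR1, was listed at 0 in the graft and reached 256 ± 79.1 in the colon and 138 ± 81.4 in the ileum. Engrafted libraries alone carried Cx3cl1 past the filter, so that a rise was built into its being tested. The same holds for any other ligand that passed the filter in this way. Ccl25, the epithelial ligand of CCR9, was at 84.5 ± 15.4 in the colon and 1912 ± 937 in the ileum on day 12 (log2 -4.57 ± 0.59, adjusted p = 0.000141). Ccl5 (log2 -4.16 ± 0.85, adjusted p = 0.00119) and Ccl3 (-1.71 ± 0.58, adjusted p = 0.0261) were lower in the colon too, and Cx3cl1 was higher there (1.21 ± 0.40, adjusted p = 0.0256).

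Of 18 tested genes of receptor signalling and desensitization, 15 were lower and 1 higher in the colon than in the graft on day 4, and 13 and 1 in the ileum, where the list medians were -2.73 and -1.67 against 0.21 and 0.23 over all genes. Rgs14, a regulator of G protein signalling, fell by 5.07 (SE 0.63) on the log2 scale in the colon, and Rac2, a GTPase of leukocyte migration, fell by 5.06 (SE 0.64). Rgs1 was the gene that rose, by 4.23 ± 0.84 in the colon (adjusted p = 0.000155) and 6.28 ± 0.89 in the ileum (adjusted p = 2.54e-06). Of 16 adhesion genes 10 fell and 1 rose in the colon, and 8 fell and 5 rose in the ileum, where the shares over all genes are those given with the ligands. The integrin subunit Itgb7 went from 4686 ± 541 to 21.5 ± 12.7 and 127 ± 139 (adjusted p = 6.69e-07 and 9.66e-06). Itgax, the integrin subunit CD11c, rose in both (adjusted p = 0.00219 and 7.25e-05).

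On day 12, 15 of the 18 signalling genes and 14 of the 16 adhesion genes were lower in the colon than in the ileum and none higher, where 17.2% of all genes were lower and 15.3% higher, with list medians of -1.83 and -2.23 against -0.01 over all genes. Dock2 (log2 -2.75 ± 0.50, adjusted p = 0.000608) and Itgb7 (-3.84 ± 0.79, adjusted p = 0.00121) were among them, beside the lower macrophage markers of the colonic libraries given above.

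Among the genes around S1PR1, Klf2, a transcription factor that drives S1pr1, fell from 1518 ± 465.9 to 282 ± 28.3 in the colon (log2 -2.08 ± 0.45, adjusted p = 0.000402) and to 489.7 ± 226 in the ileum (-1.18 ± 0.41, adjusted p = 0.0175), while S1pr1 rose. Cd69, which binds S1PR1 and takes it off the surface, rose in the ileum (3.15 ± 0.82, adjusted p = 0.00219) and was lower in the colon than in the ileum on day 12 (-3.08 ± 0.72, adjusted p = 0.00286). S1pr4, a leukocyte S1P receptor, fell from 539.5 ± 120.3 to 4.89 ± 2.82 in the colon and 14.3 ± 20.2 in the ileum (adjusted p = 1.31e-06 and 9.07e-06), and the leukotriene receptor Ltb4r1 from 1674 ± 146.5 to 14.1 ± 6.61 and 30.5 ± 9.04 (adjusted p = 1.65e-10 and 4.45e-10). Of 5 genes of S1P synthesis, export and breakdown, the phosphatase Sgpp1 fell (-2.40 ± 0.38 in the colon) and the kinase Sphk1 and the exporter Spns2 rose in both segments.

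The second recipient model was compared with the graft and with colon day 12 on counts per 10000000 reads on genes, since its table gives no totals of mapped reads. Of 5 tested receptors 4 were lower than the graft (75.5% of all 11718 tested genes passed), and for Ccr2 among the 4 that direction was built into its being tested. Against colon day 12, 3 were lower and 1 higher (60.7% of all genes), and for S1pr1 among the 3 that direction was built into its being tested. Recipient, day and sequencing run changed together, and their parts cannot be told apart.

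Ccr2 was far below the graft here too. Over the 6 CX3CR1-DTR libraries its lowest value was 0, its median 15.6 and its highest 57.2, against 6704, 9243 and 9510.0 in the graft. Pooled counts were 704 times lower (95% exact interval 445 to 1189), and the edgeR fit gave a level 491-fold lower (adjusted p = 4.05e-08). Without the graft libraries Ccr2 would have missed the filter on low reads, so a fall from the graft was built into its being tested. Against colon day 12, at 14.7 to 84.6, it was not called (log2 -1.47 ± 0.78, adjusted p = 0.117), but was without CX3CR1-DTR replicate 1 (log2 -2.08, adjusted p = 0.0173). Cx3cr1 ran from 52.2 over a median of 60.6 to 139 and lay below every library of both other groups, 15.5-fold lower than the graft (adjusted p = 1.41e-06) and 7.86-fold lower than colon day 12 (log2 -2.97 ± 0.42, adjusted p = 2.65e-05).

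Cxcr4 alone among the tested receptors was called higher than on colon day 12. It ran from 184 over a median of 351 to 704, where colon day 12 held 104 to 285 and the graft 849 to 1226. The difference from colon day 12 was 1.98-fold (log2 0.99 ± 0.37, adjusted p = 0.0308) with overlapping libraries, and was lost without any 1 of 4 libraries (colon day 12 replicates 1 and 3, CX3CR1-DTR replicates 4 and 5, adjusted p = 0.0676 to 0.104). Below the graft it was 1.96-fold lower (adjusted p = 0.0274), lost without graft replicate 1 (adjusted p = 0.119) or CX3CR1-DTR replicate 2 (adjusted p = 0.0534). Ccr7 held 22.8 to 89.9 in 6 of 6 libraries against 2.17 to 5.86 on colon day 12. In pooled counts this was a ratio of 11.2 (95% exact interval 4.54 to 35.6), and the fit without a filter gave an adjusted p of 0.000259. The table of the second model counts Ccr7 and Ccr9 on other transcripts than the first, so their levels are not strictly alike.

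Ccr1 was at 0 in 5 of 6 CX3CR1-DTR libraries and had 5 counts in replicate 5. Colon day 12 held 219 to 1417 and the graft 398 to 1348, and pooled counts were 146.5 times lower than colon day 12 (95% exact interval 62.5 to 453, edgeR adjusted p = 2.78e-06). S1pr1 ran from 0 to 9.48, 26.01 times lower in pooled counts than colon day 12 (12.3 to 65.7, edgeR adjusted p = 1.55e-05). It passed the filter through colon day 12 libraries alone, so that a fall against them was built into its being tested. Ccr9 had 2 counts in all and was not tested. These low values have a limit. Of 5632 genes with a mean of at least 300 reads on colon day 12, 241 (4.28%) had a mean under 15 in the CX3CR1-DTR libraries, among them genes that nearly every cell uses, such as Hprt (1441 against 13.4), Ywhaq (1654 against 11.9) and Psma6 (1442 against 5.00). Epithelial markers summed to 126800 to 184600 and macrophage markers to 12470 to 26330 in these libraries, against 119600 to 151000 and 13960 to 43200 on colon day 12. Plasma cell markers summed to 299 to 465.6 against 972 to 11010, and endothelial markers to 382 to 1700 against 285 to 1527.

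**Figure D4:**
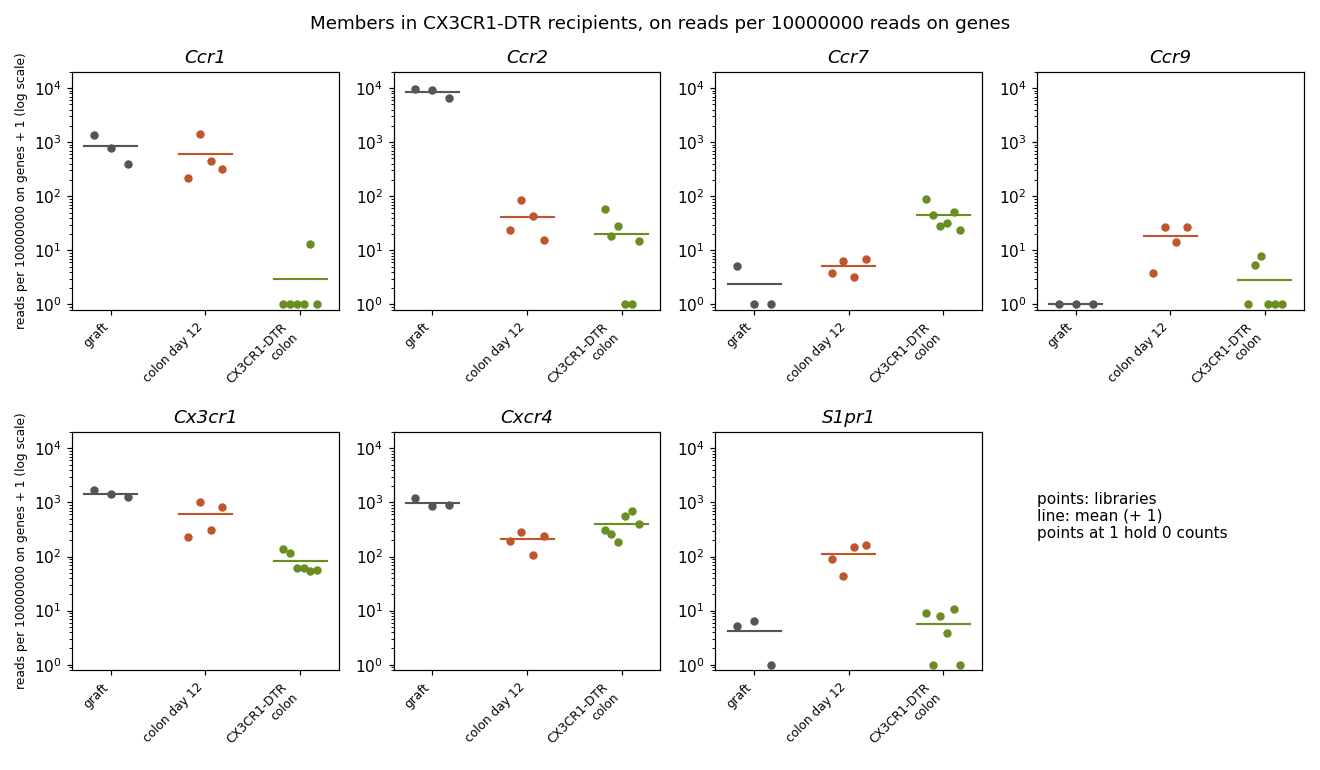
The 7 receptors in the graft, in colon day 12 and in the colon of CX3CR1-DTR recipients, as counts per 10000000 reads on genes plus 1 (log scale), 1 point per library and the mean as a line. Points at 1 hold 0 counts. Ccr1 is at 0 in 5 of 6 CX3CR1-DTR libraries, and Ccr7 lies above every library of the other groups.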

How the data were processed

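Libraries of sorted cells were made from poly(A) RNA with a MARS-seq variant. Per the paper and the labels, the authors aligned reads to mm9 with HISAT 0.1.6, kept uniquely mapping reads and counted sense reads on exons with HOMER, 1 transcript per gene, without normalization or pooling, and deposited these counts. A collapse of molecular identifiers is not given in the sources used here. Among the value columns of the second count matrix, 52 that match no sample were not used.

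Groups were taken from the labels, and the experiment (1, 2 or 3) was inferred from the spacing of the dates in the titles. The labels do not say which libraries were handled together. One ileum day 8 title, dated a year before the others of experiment 3, was read as misprinted and placed there. Across groups, deviations from the group means correlated with a median r of 0.02 within an experiment and -0.009 between experiments. Fits used edgeR 4.0.16 (TMM, estimateDisp, glmQLFit, glmQLFTest) in R 4.3.3, with 25 libraries in 7 groups for CD11c-DTR recipients and 13 libraries for the CX3CR1-DTR comparisons (24148 shared symbols). A gene was tested where 3 or more libraries reached 50 normalized reads, and called where the Benjamini-Hochberg p over all tested genes was under 0.05. The SE of a log2 difference was its size over the root of the F statistic. Intervals and the floor of 3 counts cover counting error only. An adjusted p beside a pooled ratio or beside a limit of 3 counts is that of the edgeR fit. Libraries of a group differed by a chi-square per degree of freedom of 5.21 or more, beyond sampling noise, so none was counted as a duplicate.

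Alternatives were RLE size factors, library totals, no filter, DESeq2 1.42.0 (Wald test, no independent filtering), the compared groups alone, the experiment as a block, all 26 libraries, ileum day 4 from experiment 2 alone and leaving out each library. Pattern likeness was Pearson's r of log2(normalized reads + 50) over 25 libraries, with candidates of at least 200 normalized reads in some group mean. By rule, all receptors were to be named in each comparison, and from each list at most 3 genes that rose and 3 that fell by the largest change. The receptors and lists were chosen with earlier results of these data known. Of the receptors, 5 of 7 had a RefSeq promoter. Results for some list genes are not reported here.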

Additional observations from a re-analysis of the deposited data

Results flagged for a closer look

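Of 42 groups of 4 or more libraries examined, 8 held a library whose gap to the nearest other exceeded Dixon's 95% critical value for the group's range. Chance gives about 1 in 20 where values are normally distributed. Read levels, some of them near the floor, need not be, so the 8 cannot be set against that rate. Ccr1 gave 4 of them. Colon day 8 replicate 1, left out of the comparisons, held 1926 normalized reads of Ccr1 against 154 to 304 in the others, and 1168 of Cxcr4 against 36.5 to 108. Colon day 12 replicate 2 held 834.5 of Ccr1 against 149.9 to 248.5, and ileum day 12 replicate 1 held 3095 against 767 to 897.5. CX3CR1-DTR replicate 5 held 11.85 reads of Ccr1 per 10000000 reads on genes, and the others 0, so that any count in it would have been flagged. Colon day 8 replicate 4 held 22.24 normalized reads of Ccr9 against 0 to 2.61, and ileum day 12 replicate 4 held 631.4 against 248 to 312. Ileum day 4 replicate 3 held 1511 of Cxcr4 against 96.1 to 168.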

How the results depend on the processing

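Of the log2 differences recomputed, RLE size factors left 94 of 94 with their direction and side of the threshold, no filter 93 of 94, DESeq2 87 of 94, library totals 84 of 94, the compared groups alone 82 of 94 and leaving out 1 library 646 of 731. The experiment as a replicate block left 74 of 84, all 26 libraries 69 of 84 and ileum day 4 from experiment 2 alone 69 of 84. Scaling to macrophage markers, chosen after seeing the data, left 2 of 18. Where the setting itself does not show it, the cause was not tested.

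Between colon day 8 and graft 2 receptors passed with all 26 libraries. Between colon day 12 and graft 5 passed with DESeq2, the compared groups alone, the replicate block and experiment 2 alone. Between colon and ileum on day 4 the count was 1 with library totals, 0 with the compared groups alone, with all 26 libraries and with macrophage scaling, 6 with experiment 2 alone and 0 to 4 with 1 library left out. On day 8 it was 2 with all 26 libraries, 0 with macrophage scaling and 2 to 5 with 1 library left out, and on day 12 it was 1 with macrophage scaling.

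Directions turned as follows (log2). With all 26 libraries, Ccr1 was 0.677 between colon day 8 and graft, Cxcr4 1.241 between colon and ileum on day 8, and from colon day 8 to 12 Ccr1 was -1.036, Ccr9 0.025, Cx3cr1 -0.275 and Cxcr4 -1.661. With library totals, Cx3cr1 was -0.045 and -0.269 between ileum days 4 and 8 and graft, Ccr9 -0.064 from ileum day 4 to 8, and the interaction of Ccr1 0.033. With DESeq2, Cxcr4 was 0.021 between ileum day 4 and graft and Ccr9 0.179 from colon day 8 to 12. With the replicate block, which pairs libraries by experiment, Cx3cr1 was -0.023 between ileum day 8 and graft, Ccr9 0.333 from colon day 8 to 12 and -0.441 from ileum day 4 to 8, Ccr1 -0.122 from ileum day 4 to 8 and its interaction 0.153. With experiment 2 alone, Ccr9 was -0.791 and Cxcr4 0.034 from ileum day 4 to 8, and the interactions of Ccr1 and S1pr1 were 0.172 and 0.343. With macrophage scaling, colon minus ileum was 0.421 for Ccr2 and 0.715 for S1pr1 on day 4, 0.409 for Ccr1, 1.262 for Ccr2, 0.563 for Cx3cr1 and 1.197 for Cxcr4 on day 8, and 0.054 for Ccr1, 1.23 for Cxcr4 and 0.217 for S1pr1 on day 12.

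With 1 library left out, Ccr1 ran from -1.166 to 0.122 between colon day 12 and graft, from -0.194 to 0.798 from colon day 4 to 8, from -0.11 to 0.61 from ileum day 4 to 8, from -0.06 to 1.156 from ileum day 8 to 12 and from -0.862 to 0.734 in the interaction. Ccr9 ran from -0.515 to 2.602 from colon day 8 to 12 and from -0.353 to 1.094 from ileum day 4 to 8. Cx3cr1 ran from -0.411 to 0.572 from colon day 4 to 8, from -0.644 to 0.063 from ileum day 4 to 8, from -0.22 to 0.485 between ileum day 8 and graft and from -0.154 to 0.666 in the interaction. Cxcr4 ran from -1.974 to 0.322 between ileum day 4 and graft and from -2.037 to 0.255 from ileum day 4 to 8, and S1pr1 from -0.699 to 0.053 from ileum day 8 to 12. Over all genes, the block took the calls from ileum day 4 to 8 from 608 to 0 and those between colon and ileum on day 4 from 377 to 1265. Depth limits Ccr7, colonic Ccr9 and graft S1pr1, where 3 counts equal 3.51 to 27.7 normalized reads.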
